A study of Rattus norvegicus with 2 samples.

Results

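S-phase microglia are described here as 1156 cells of 12670 barcodes in the rat fetal hippocampus, 470 from a dexamethasone-exposed pool and 686 from a control pool. They were chosen by their own expression. Cells needed at least 200 genes, at most 20% of unique molecular identifiers (UMIs) from mitochondrially encoded genes, at least 0.8% of UMIs from C1qa, C1qb and C1qc, and under 0.15% from Mrc1, Pf4, Ms4a7 and Stab1, which mark border macrophages. Cells with more than 2 UMIs of Ccnb1, Cdc20, Cenpf, Birc5, Ube2c and Tpx2, genes of mitosis, were set aside. Of the 7706 eligible cells that remained, both libraries together, the 15% with the highest summed UMI share of Mcm2, Mcm3, Mcm4, Mcm5, Mcm6, Mcm7, Ung and Uhrf1 were taken. They are set against the 3853 cells in the lower 50% by the same share, called low-score cells below. The 2697 cells between them enter only where ranges of the score are given.

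The study asked what prenatal glucocorticoid does to developing microglia. Each library was a pool of hippocampal microglia from 7 male embryos at gestational day 20, isolated by flow cytometry. The pools differed in prenatal exposure to dexamethasone, which is a synthetic glucocorticoid, and the unexposed pool is called the control. The labels used here give no strain, dose or day of exposure. Each group is a single library without replicates, so no test was made, and exposure cannot be told apart from any other difference between the pools or their handling. Intervals are at the 95% level and cover counting error only. Because the 8 score genes and the gates chose the cells, and other genes follow them, every difference between S-phase and low-score cells is a description.

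Microglia are the resident macrophages of the brain. They descend from yolk sac progenitors and multiply in the fetal brain by local division. Before S phase, the origin recognition complex, Cdc6 and Cdt1 load the ring helicase built from Mcm2 to Mcm7 onto DNA. At S phase the helicase is activated, Pcna clamps the polymerases to the template, and Uhrf1 brings the methyltransferase Dnmt1 to newly copied DNA. Many of these genes are targets of E2F transcription factors, which the retinoblastoma proteins hold in check until cyclin-dependent kinases act.

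The libraries held 4328 dexamethasone and 8342 control barcodes, of which 2748 and 4958 were eligible. S-phase cells had a median of 9233 UMIs and 2775.5 genes after dexamethasone, and the control ones of 8096 UMIs and 2545.5 genes. Low-score cells had medians of 8646 and 7460 UMIs, so the S-phase cells were the deeper ones in both libraries. Mitochondrial UMIs made up a median of 2.91% in dexamethasone and 5.90% in control S-phase cells, and the C1q genes 2.24% and 1.75%. The libraries shared 5 barcodes, and none of the S-phase barcodes occurred in both. Doublets were not called.

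The 8 score genes carried a median of 9 UMIs per dexamethasone S-phase cell and 8 per control one. A median of 5 different score genes was present in members of each library. At least 3 different ones were seen in 445 of 470 dexamethasone members (94.7%) and in 617 of 686 control members (89.9%), while 7 and 23 members rested on 1 or 2 UMIs in all. The score is continuous. The lowest member stood at 639.1 counts per 1000000 UMIs (CPM) of the score genes and the highest non-member at 638.9 CPM, and the highest cell at 3958 CPM. Within 10% of the cutoff lay 145 members above it and 179 cells below it. Low-score cells had at most 125.6 CPM, and 73.3% of the dexamethasone and 80.5% of the control ones had no score gene UMI at all.

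As levels over all S-phase cells, Mcm6 stood at 271.9 CPM with dexamethasone and 262.0 CPM in the control, against 6.22 and 5.23 CPM in low-score cells. Mcm3 stood at 159.1 and 168.0 CPM, Mcm2 at 131.9 and 106.6 CPM, and Mcm5 at 120.8 and 130.3 CPM. Mcm7 stood at 118.8 and 106.7 CPM, Ung, a glycosylase that removes uracil from DNA, at 98.1 and 95.2 CPM, and Mcm4 at 97.6 and 93.4 CPM. Uhrf1 stood at 71.1 and 77.4 CPM, and low-score cells held 5 and 7 Uhrf1 UMIs in all. These CPM count UMIs and are not divided by gene length, so they compare a gene across cells and not the genes with one another. Since the same genes chose the cells, the cells were also chosen with 4 score genes and read on the other 4. Chosen with Mcm2, Mcm4, Mcm6 and Ung, Mcm5 had a log2 ratio over low-score cells of 3.99 (3.60 to 4.39) in the dexamethasone and 4.26 (3.97 to 4.57) in the control library, and Uhrf1 5.46 and 5.11. Chosen with Mcm3, Mcm5, Mcm7 and Uhrf1, the log2 ratio of Mcm6 was 2.96 (2.79 to 3.14) and 3.03 (2.89 to 3.18), and Ung had the smallest, 2.27 and 2.44. In both libraries the score genes left out of the choice were also higher in the chosen cells. Their ratios were smaller than when a gene takes part in the choice. The score genes were themselves picked with earlier results of these data known. That they went together is therefore a description and no independent support for the group.

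RefSeq promoters of the GRCr8 assembly were searched on both strands for the 8-base E2F site in its 4 versions, TTTCCCGC, TTTCGCGC, TTTGCCGC and TTTGGCGC. A window ran from 250 bases before to 50 after a gene's start. All 7 score genes with a promoter in the table, that is all but Mcm4, had at least 1 match, against 651 of 27457 genes (2.37%) overall. For 6 of them, a stretch of 60 bases before the start is shown 5′ to 3′ with the matches in capitals, to let the sites be compared. The nearest match lies 10, 8, 135, 52, 20 and 99 bases before the start, in the order shown. Mcm3 also matched, at and after its start.
Mcm2, chr4:122918095-122918154, minus strand: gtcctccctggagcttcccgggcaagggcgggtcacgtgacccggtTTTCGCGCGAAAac
Mcm5, chr19:13488753-13488812, plus strand: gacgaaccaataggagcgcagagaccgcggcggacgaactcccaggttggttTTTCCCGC
Mcm6, chr13:42404454-42404513, minus strand: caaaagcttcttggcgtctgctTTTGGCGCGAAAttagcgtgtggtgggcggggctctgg
Mcm7, chr12:22163197-22163256, minus strand: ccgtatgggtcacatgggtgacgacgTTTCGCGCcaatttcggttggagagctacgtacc
Ung, chr12:48154046-48154105, minus strand: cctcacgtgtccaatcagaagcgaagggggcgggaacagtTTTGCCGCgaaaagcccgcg
Uhrf1, chr9:1223061-1223120, plus strand: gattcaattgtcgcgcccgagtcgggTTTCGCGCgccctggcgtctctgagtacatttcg
In Mcm2 and Mcm6 the capitals are 2 overlapping matches, 1 on each strand. Uhrf1 has 3 windows in the table, of which the 1 shown holds matches.

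Genes that were no part of the choice showed the same letters in unequal shares. Of genes with a promoter in the table, 12 of 22 in origin licensing and firing (54.5%) had a match, 9 of 26 of the replication fork (34.6%) and 6 of 26 of DNA repair (23.1%). Of the mitotic genes outside the gate 3 of 63 (4.76%) had one, and of the homeostatic microglia genes 0 of 23. The mitotic genes instead often held TTTGAA, the core of the cell cycle homology region, searched likewise. It was in 40 of 63 (63.5%) against 19.4% of all genes and 28.6% of the score genes. CCAAT, also searched likewise, was in 71.4% of the mitotic genes against 39.6% of all genes, but did not set them apart from the score genes. It was in 6 of 7 score genes (85.7%), 72.7% of the chromatin, 59.1% of the licensing and 38.5% of the repair genes. A match describes letters in a window and is no evidence of binding.

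Across all genes with at least 20 CPM on average, 463 of 5177 (8.94%) were at least 1.5-fold higher in S-phase than in low-score cells of the dexamethasone library and 133 (2.57%) at least 1.5-fold lower. In the control library the counts were 457 of 5189 (8.81%) and 136 (2.62%). The median log2 ratio over these genes was 0.06 and 0.05. A gene that is nearly silent in low-score cells reached 20 CPM only through the S-phase cells, so the counts of list members past the fold below are not support for a list. The minimum of 20 UMIs behind the list medians and the counts of higher members can be met in the same way. Those are no support either.

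Origin licensing and firing genes were higher in S-phase cells almost throughout. Of 27 members with at least 20 UMIs in the dexamethasone library 26 were higher, and 28 of 28 in the control library, with median log2 ratios of 3.28 and 3.31. Among those at 20 CPM, 11 of 12 and 10 of 12 were past 1.5-fold. Over members with at least 100 UMIs the medians were 2.76 and 3.24. Cdt1, which loads the helicase, stood at 45.2 CPM in dexamethasone and 43.5 CPM in control S-phase cells, against 1.18 and 1.24 CPM in low-score cells, a log2 ratio of 5.26 (4.48 to 6.16) and 5.14 (4.55 to 5.78). Its partner Cdc6 stood at 39.6 and 36.9 CPM against 0.505 and 0.856 CPM. Gmnn, the inhibitor that binds Cdt1 once origins have fired, stood at 218.6 and 197.3 CPM against 21.4 and 17.1 CPM, with log2 ratios of 3.36 (3.16 to 3.56) and 3.53 (3.36 to 3.71). Loader and inhibitor were thus both high in the same group of cells. Dscc1, part of an alternative loader of the Pcna clamp, stood at 56.1 and 54.4 CPM against 1.60 and 1.71 CPM.

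Replication fork genes had medians of 2.18 and 2.32 on the log2 scale, and 26 of 27 measured members were higher in each library. Pcna, the sliding clamp, stood at 228.2 CPM in dexamethasone and 238.5 CPM in control S-phase cells. It stood at 57.4 and 53.6 CPM in low-score cells, log2 ratios of 1.99 (1.85 to 2.13) and 2.15 (2.04 to 2.27). Lig1, which seals Okazaki fragments, stood at 149.7 and 194.8 CPM against 18.4 and 26.4 CPM. Prim1, the catalytic subunit of primase, had log2 ratios of 2.78 and 2.82, and Fen1, which trims the flaps of Okazaki fragments, 3.38 and 3.33. Atad5, which takes Pcna off the DNA, had the highest ratio of the fork genes at 20 CPM, 3.67 (3.34 to 4.01) and 3.85 (3.63 to 4.08). The exception was Pold4, the small subunit of polymerase delta, at 68.1 and 64.2 CPM in S-phase and 83.9 and 77.8 CPM in low-score cells, log2 ratios of -0.30 (-0.49 to -0.12) and -0.28 (-0.44 to -0.12). Pold4, like Prim1, is named outside the fixed naming rule, after its values were seen.

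Genes of nucleotide supply had medians of 0.96 and 1.28, with 29 of 30 higher in each library. Dut, which keeps uracil out of the nucleotide pool, was high at 239.4 and 208.8 CPM against 26.6 and 21.4 CPM. Tyms, the thymidylate synthase, stood at 62.3 and 59.2 CPM against 6.48 and 7.32 CPM. Nme1, a kinase that serves other nucleotide needs too, was at 207.7 and 187.6 CPM with log2 ratios of only 0.38 and 0.31. Rrm2, the regulated subunit of ribonucleotide reductase, was scarce among members, at 9.63 CPM in the dexamethasone and 19.2 CPM in the control library, and low-score cells held 2 and 11 UMIs of it. It too is named after its values were seen.

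Of the G1 to S control genes 22 of 25 were higher in the dexamethasone and 24 of 27 in the control library, with medians of 0.94 and 0.79. The E cyclins, which open S phase, were among the strongest and fell outside the naming rule. Ccne1 stood at 28.0 and 38.4 CPM against 1.01 and 1.24 CPM, and Ccne2 at 24.2 and 23.9 CPM against 1.18 and 1.47 CPM. Ccnd1, the D cyclin of earlier G1, stood at 346.4 and 396.6 CPM against 230.0 and 230.8 CPM, with log2 ratios of 0.59 (0.50 to 0.68) and 0.78 (0.71 to 0.85). Wee1, a kinase that restrains Cdk1, had log2 ratios of 3.21 and 3.40. The members lower in S-phase cells of both libraries were Rbl2, a relative of the retinoblastoma protein, at -0.81 and -0.48, and the kinase inhibitors Cdkn1a and Cdkn1b, all named after their values were seen. Cdkn1a had log2 ratios of -0.71 (-1.12 to -0.33) and -0.76 (-1.09 to -0.43), and Cdkn1b -0.28 (-0.53 to -0.04) and -0.25 (-0.46 to -0.05).

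Chromatin genes were higher in 24 of 24 measured cases in each library, with medians of 1.63 and 1.52. Dnmt1 stood at 142.6 and 154.6 CPM against 21.6 and 20.2 CPM, and Chaf1a, a subunit of the histone chaperone CAF-1, at 43.5 and 58.9 CPM against 3.36 and 4.09 CPM. The broadly expressed Dek and Anp32b were higher by log2 ratios of 1.61 and 1.06 with dexamethasone and 1.65 and 1.05 in control cells. DNA repair genes had a median of 2.53 in both libraries, with 30 of 30 and 32 of 32 higher. Over repair genes with at least 100 UMIs the medians were 2.02 and 2.07. Brca1, of homologous recombination, stood at 35.3 and 42.2 CPM against 1.93 and 1.76 CPM, Usp1, a deubiquitinase of Pcna, at 124.4 and 139.3 CPM against 20.8 and 25.0 CPM, and Parp1 at 328.7 and 420.5 CPM against 254.5 and 353.1 CPM. Histone genes had no single direction. H1f5 had log2 ratios of 1.22 and 1.62, while Hist1h2bq was lower in S-phase cells, at 24.8 and 25.9 CPM against 113.1 and 87.1 CPM. Most histone mRNA made in S phase lacks a poly(A) tail, and the labels give polyadenylated RNA as the molecule measured. Whether that bears on the histone values was not tested.

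**Figure D1:**
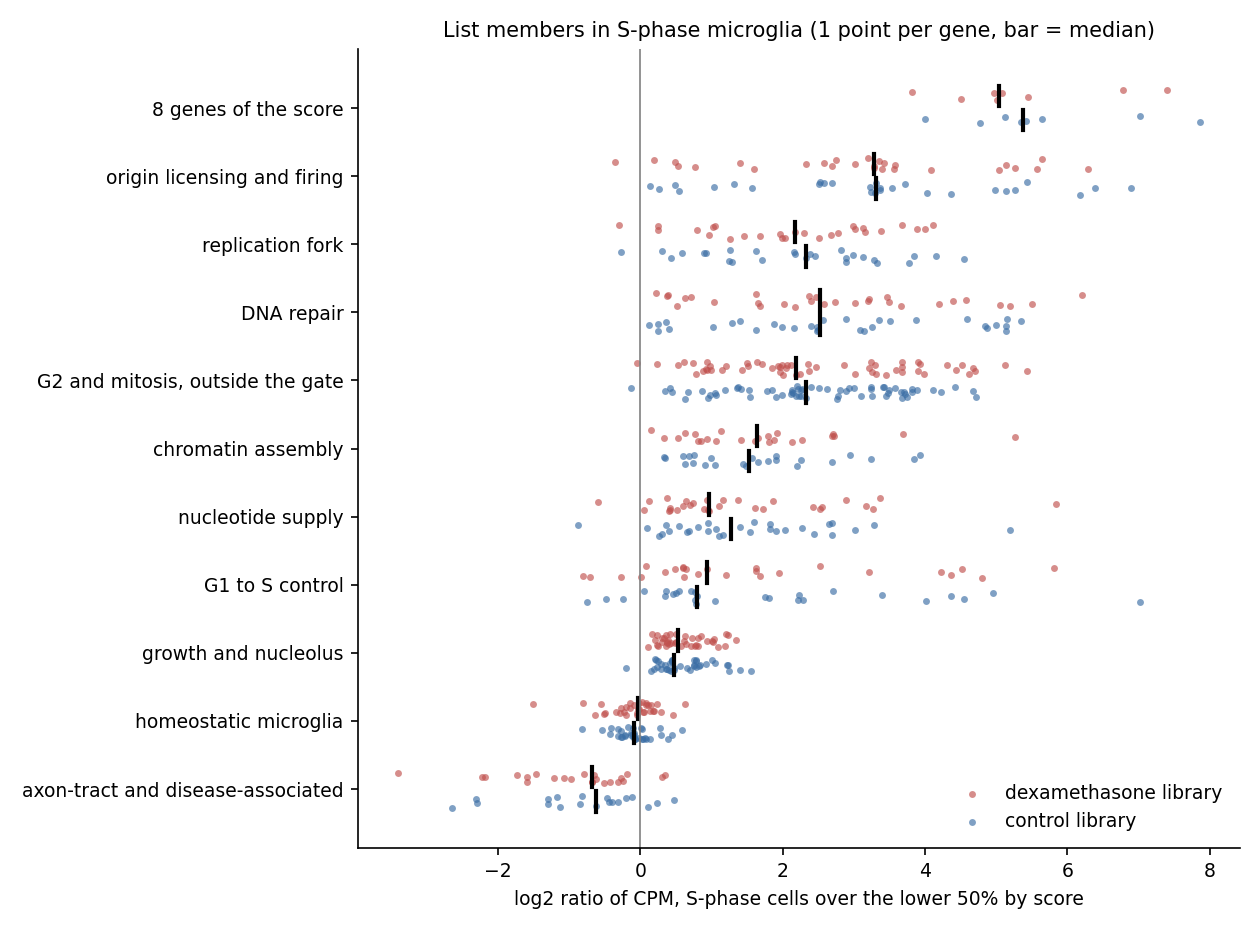
Log2 ratio of CPM in S-phase over low-score microglia (x axis) for each measured member of 11 gene lists (rows), in the dexamethasone (red) and control (blue) library. Each point is 1 gene with at least 20 UMIs and each black bar a list's median, which runs from 5.04 and 5.38 for the 8 score genes, which chose the cells, to -0.69 and -0.63 for the axon-tract and disease-associated list.

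Genes of G2 and mitosis outside the gate were also higher, in 56 of 57 dexamethasone and 64 of 65 control cases, with medians of 2.19 and 2.33, although cells with more than 2 UMIs of the 6 gate genes had been removed. Mki67, a proliferation marker of the chromosome surface, stood at 108.1 CPM in dexamethasone and 169.5 CPM in control S-phase cells against 11.4 and 12.1 CPM. Cenph, of the inner kinetochore, stood at 45.4 and 46.0 CPM against 3.03 and 3.42 CPM, and Top2a at 19.3 and 28.7 CPM against 2.02 and 4.23 CPM. Necab3, a calcium-binding protein, was among the 12 highest ratios outside any list, at 51.4 and 47.0 CPM against 3.53 and 3.23 CPM.

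The members were not uniform. In the dexamethasone library 317 had no UMI of the mitotic gate genes, 97 had 1 and 56 had 2, and in the control library 400, 185 and 101. Mki67 stood at 61.4, 154.8 and 252.0 CPM across these 3 sets of dexamethasone cells and at 104.9, 213.5 and 282.4 CPM across the control ones. Ccne1 went from 14.7 through 48.1 to 58.3 CPM and from 25.4 through 40.5 to 71.3 CPM. Rrm2 went from 3.34 through 14.4 to 31.5 CPM and from 7.31 through 26.6 to 41.0 CPM. Mcm5, a score gene, went from 106.5 through 149.9 to 140.2 CPM and from 128.1 through 126.7 to 141.6 CPM. P2ry12 went from 196.3 through 199.9 to 193.7 CPM and from 252.5 through 245.9 to 196.0 CPM. The sets with more gate UMIs were also deeper, with median UMIs from 8723 to 10813 and from 7279 to 10176, and the part of depth was not tested.

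**Figure D2:**
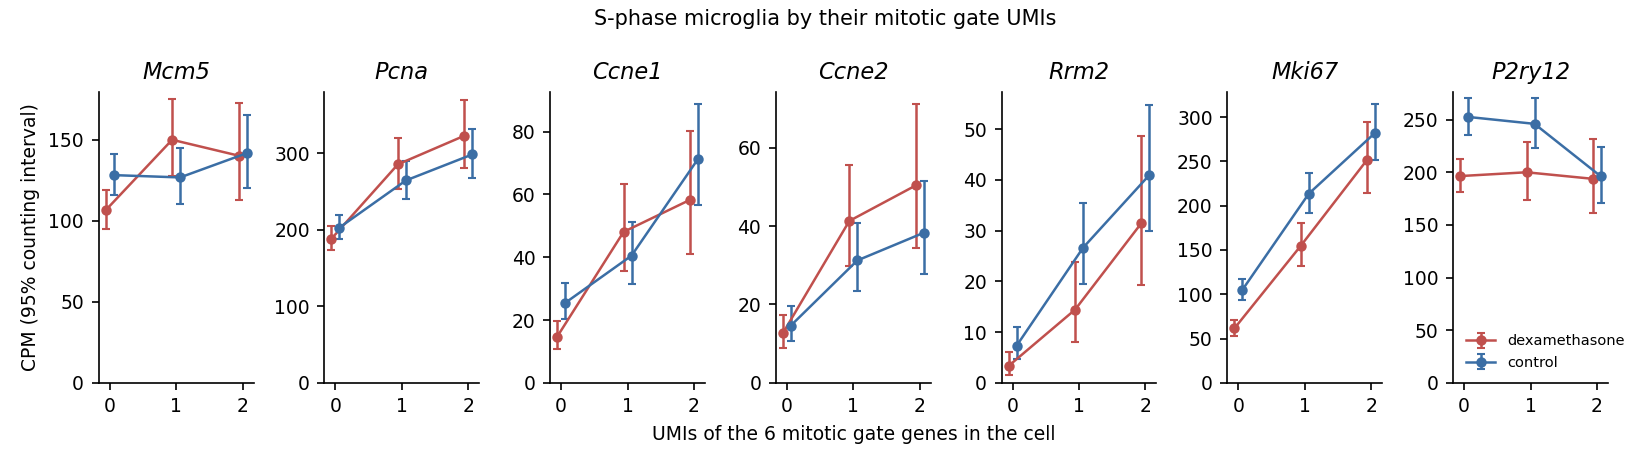
CPM with 95% counting intervals (y axes, each from 0) of 7 genes in S-phase microglia that carried 0, 1 or 2 UMIs of the 6 mitotic gate genes (x axis), in the dexamethasone (red) and control (blue) library. Mki67 climbs from 61.4 to 252.0 CPM and from 104.9 to 282.4 CPM. Mcm5 goes from 106.5 through 149.9 to 140.2 CPM and from 128.1 through 126.7 to 141.6 CPM.

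The gate took out 640 of 3388 cells of the dexamethasone library (18.9%, interval 17.6 to 20.2%) and 1240 of 6198 of the control (20.0%, interval 19.0 to 21.0%). Of the removed cells 181 (28.3%) and 293 (23.6%) were above the S-phase cutoff, so cells with S-phase transcripts and more than 2 mitotic gate UMIs lie outside the members.

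Growth and nucleolar genes were higher by less, with medians of 0.53 and 0.47. All 40 measured members were higher with dexamethasone and 39 of 40 in control cells. Ranbp1, a regulator of nuclear transport, stood at 434.4 and 429.0 CPM against 171.1 and 162.6 CPM, Nop58, of box C/D ribonucleoproteins, at 153.7 and 170.8 CPM against 67.5 and 58.2 CPM, and Npm1, a nucleolar chaperone, at 1443 and 1279 CPM against 1017 and 944.0 CPM. The cytosolic ribosomal protein genes had medians of 0.10 and 0.12, beside 0.06 and 0.05 over all genes at 20 CPM. Of the measured ones 74 of 83 and 75 of 82 were higher, none past 1.5-fold.

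Homeostatic microglia genes had medians of -0.04 and -0.09, with 14 of 34 and 12 of 35 higher. P2ry12, a purinergic receptor that guides microglial processes, stood at 196.8 and 240.0 CPM in S-phase cells against 167.6 and 219.1 CPM in low-score cells, log2 ratios of 0.23 (0.12 to 0.34) and 0.13 (0.05 to 0.22). Tmem119, a microglial surface protein, stood at 71.1 and 88.9 CPM against 73.6 and 96.1 CPM, with intervals that include 0 in both libraries. The summed level of the list was nevertheless lower, at 32250 and 38899 CPM against 42535 and 50409 CPM. Cst3, the secreted protease inhibitor cystatin C, makes up much of that sum and stood at 16620 and 21962 CPM against 25786 and 32094 CPM.

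Genes of axon-tract and disease-associated microglia were lower in S-phase cells, 21 of 23 in the dexamethasone and 16 of 19 in the control library, with medians of -0.69 and -0.63. Of those at 20 CPM, 10 of 17 and 10 of 16 were at least 1.5-fold lower, beside 2.57% and 2.62% of all genes. Gpnmb, a membrane glycoprotein of lipid-laden phagocytes, stood at 69.4 and 53.7 CPM against 316.8 and 264.3 CPM, log2 ratios of -2.19 (-2.36 to -2.03) and -2.30 (-2.47 to -2.14). Anxa5, which binds phosphatidylserine, stood at 13.1 and 14.3 CPM against 61.1 and 71.6 CPM. Igf1, a growth factor, stood at 317.3 and 284.5 CPM against 735.0 and 700.7 CPM, and Cd9, a tetraspanin, at 237.9 and 183.8 CPM against 502.1 and 403.6 CPM, both named after their values were seen. Spp1, the secreted protein osteopontin, stood at 167.0 and 70.6 CPM against 461.3 and 443.0 CPM. In the dexamethasone S-phase cells 5 cells held 64.1% of its UMIs, and in the control ones 5 held 44.9%.

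Other genes among the 12 lowest ratios had no single role. Rab7b, a small GTPase of late endosomes, stood at 6.64 and 8.67 CPM against 50.5 and 50.3 CPM. Cd8a, a coreceptor known from T cells that rat macrophages also express, stood at 7.28 and 20.8 CPM against 60.9 and 76.7 CPM, and 5 cells held 64.8% of its UMIs in the control S-phase cells. Csf1, the ligand of the microglial survival receptor, stood at 19.9 and 19.7 CPM against 66.2 and 48.5 CPM. Pla2g7, Fabp3, Cytip, Tmem140 and Hopx were lower too, by log2 ratios between -2.49 and -1.30. The chemokine Ccl3 was at 74.1 and 74.2 CPM against 219.5 and 171.3 CPM.

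The replication, growth, homeostatic and axon-tract lists differed step by step along the score and not only at the cutoff. Origin licensing genes summed to 168, 260, 530, 878 and 1345 CPM over the 5 ranges from the lower 50% to the top 5% in the dexamethasone library, and to 168, 266, 521, 926 and 1382 CPM in the control. The axon-tract list went down over the same ranges, from 22558 to 14834 CPM and from 24536 to 16569 CPM. Cells just below the cutoff, in the middle of these ranges, thus stood between the low-score cells and the members.

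**Figure D3:**
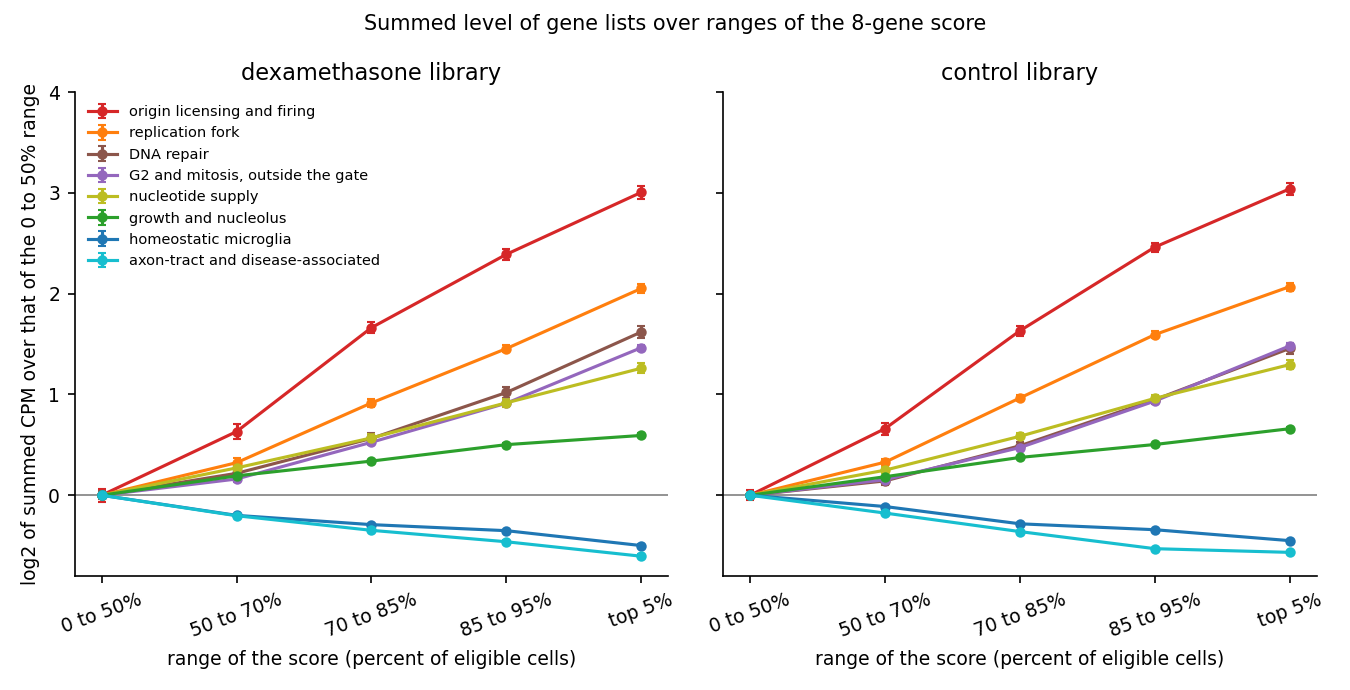
Summed CPM of 8 gene lists over 5 ranges of the score (x axis), as log2 over the 0 to 50% range (y axis) with 95% counting intervals, in each library. The replication and repair lists climb at every step, while the homeostatic and axon-tract lists decline at every step in both libraries.

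Lists of other cell types were read in the members. The median S-phase cell held no UMI of the neuron, lymphoid or endothelial and mural lists in either library. The list of other glia had medians of 171.2 and 189.8 CPM per cell in members, above 116.7 and 126.8 CPM in low-score cells, mostly through Vim, an intermediate filament gene also made by other cells, at 203.8 and 204.0 CPM over all members. The granulocyte and monocyte list had a median of 153.3 CPM in dexamethasone members and 98.0 CPM in low-score cells, and of 0 in both sets of control cells. Plac8 made up most of it in members of both libraries and in control low-score cells. It stood at 281.6 and 137.4 CPM in members and 304.1 and 145.3 CPM in low-score cells. In dexamethasone low-score cells Plac8 held 3615 of the list's 9308 UMIs, S100a8 2651 and S100a9 2657. Of the S100a8 and S100a9 UMIs there, 3 cells rich in these genes held 97.9%. Among dexamethasone members 1 such cell held 35.3%. The part of these lists in the results was not tested. Globin and erythroid genes had a median of 158.8 CPM per cell in dexamethasone and 368.7 CPM in control members, close to 146.7 and 367.5 CPM in low-score cells. Cells with at least 1% of UMIs from the erythroid list numbered 0 among members of each library, and 6 dexamethasone and 1 control among low-score cells. In the dexamethasone library those 6 cells held 94.9% of the erythroid list UMIs of all low-score cells. Border macrophage genes outside the gate summed to medians of 10078 and 10995 CPM in members and 12075 and 14332 CPM in low-score cells, mostly through Apoe, which microglia express as well. Gene by gene the list was not uniformly lower in members. In the dexamethasone library 5 of 8 measured genes were higher in members, with a median log2 ratio of 0.29. In the control library 4 of 10 were, with a median of -0.08.

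S-phase cells made up a larger share of the dexamethasone than of the control library. They were 470 of 2748 eligible cells (17.1%, exact Clopper-Pearson interval 15.7 to 18.6%) and 686 of 4958 (13.8%, 12.9 to 14.8%), a difference of 3.27 percentage points (0.88 to 5.68). Since dexamethasone cells were deeper, each eligible cell was also thinned to 4100 UMIs, which left out 153 dexamethasone and 480 control cells. At a cutoff of 3 score gene UMIs the shares were then 469 of 2595 (18.1%, 16.6 to 19.6%) and 708 of 4478 (15.8%, 14.8 to 16.9%), and the difference of 2.26 points had an interval from -0.30 to 4.86. The gap also depended on which score genes were used, at 4.96 points with Mcm2, Mcm4, Mcm6 and Ung and 1.46 points (-0.90 to 3.85) with Mcm3, Mcm5, Mcm7 and Uhrf1. Counted with the removed mitotic cells above the cutoff, S-phase cells were 651 of 3388 (19.2%, 17.9 to 20.6%) and 979 of 6198 (15.8%, 14.9 to 16.7%). Free RNA can enter the score, and its part was not tested.

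**Figure D4:**
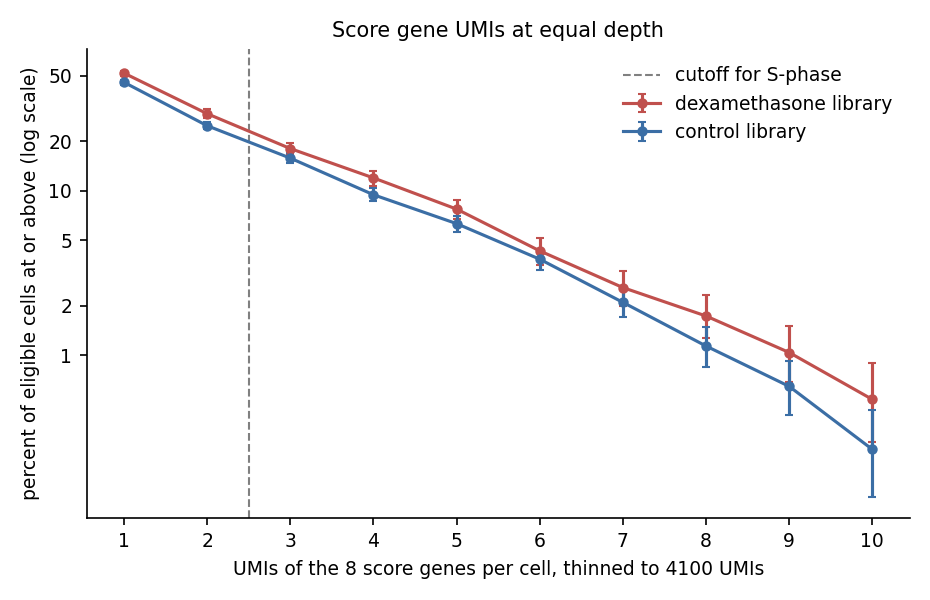
Percent of eligible cells (y axis, log scale, 95% exact intervals) with at least the given number of score gene UMIs (x axis) after thinning every cell to 4100 UMIs, in the dexamethasone (red) and control (blue) library. The dashed line marks the cutoff of 3 UMIs, where the shares are 18.1% and 15.8%.

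Within S-phase cells the libraries were compared gene by gene, with members of both chosen by 1 common cutoff on replication genes. Of 5306 genes with at least 20 CPM on average, 82 (1.55%) were at least 1.5-fold higher in dexamethasone and 76 (1.43%) at least 1.5-fold lower, and the median log2 ratio was -0.02. None of the 15 licensing, 26 fork, 19 nucleotide, 17 G1 to S, 23 chromatin and 16 repair genes at that level was past 1.5-fold in either direction, which is near the share of all genes. Their median log2 ratios over measured members were -0.01, -0.08, -0.06, -0.08, -0.02 and -0.16. By counting interval, 2 of 27 measured fork genes were above 0 and 8 below, and 2 of 32 measured repair genes above and 7 below. Of the 5306 genes at 20 CPM, 13.6% were above and 16.0% below. The list counts also hold genes under 20 CPM, since 26 of the 27 fork and 16 of the 32 repair genes reached it. These shares are therefore not directly comparable. Mcm2 was the only score gene whose interval excluded 0, with a log2 ratio of 0.31 (0.15 to 0.47), and it took part in the choice of the cells. Lig1 had a log2 ratio of -0.38 (-0.52 to -0.24), Atad5 -0.51 (-0.68 to -0.34) and Chaf1a -0.44 (-0.69 to -0.18), and Rpa3, the small subunit of the single-strand binding protein, 0.45 (0.26 to 0.64). For Lig1 and Rpa3 the low-score cells gave similar values, -0.52 and 0.44.

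Of the mitotic genes outside the gate, 46 of 62 measured had a log2 ratio below 0 in members, with a median of -0.28, and 40 of 54 in low-score cells, with a median of -0.26. The interval was below 0 for 16 and above 0 for 4 of the 62, and 1 of 23 at 20 CPM was past 1.5-fold, lower. The summed level of the list was nearly equal, at 4140 and 4125 CPM, a log2 ratio of 0.01 (-0.02 to 0.03). Mki67 had a log2 ratio of -0.65 (-0.81 to -0.49) in S-phase cells and -0.08 (-0.39 to 0.23) in low-score cells. It was lower in the dexamethasone library among members without a mitotic gate UMI, at 61.4 against 104.9 CPM. The tubulin genes of that list went the other way, with Tuba1b at 729.5 CPM in dexamethasone and 582.9 CPM in control members and Tubb5 at 1195 and 1032 CPM.

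Among genes at 20 CPM on average, the highest ratio of dexamethasone over control in S-phase cells was that of F13a1, a transglutaminase of fetal and border macrophages. It stood at 112.0 CPM in dexamethasone and 9.34 CPM in control members, a log2 ratio of 3.58 (3.18 to 4.01), and at 83.0 and 14.1 CPM in low-score cells. Its UMIs came from 106 dexamethasone members and 29 control ones, and 5 cells held 21.6% and 51.8% of them. Lsp1, an actin-binding protein of leukocytes, stood at 40.5 and 5.67 CPM, Cideb, of lipid droplets, at 99.6 and 34.7 CPM, Crip1 at 32.3 and 11.5 CPM and S100a10 at 33.0 and 14.5 CPM. Dusp1, a phosphatase that glucocorticoids induce in many cells, stood at 28.9 and 11.8 CPM, and Tuba1c at 134.7 and 60.7 CPM. For Lsp1, Cideb and Tuba1c the log2 ratios were 2.84, 1.52 and 1.15 in members and 2.60, 1.41 and 0.80 in low-score cells, so these differences were present in both sets of cells. Spp1 had a log2 ratio of 1.24 (1.07 to 1.42) in members and 0.06 (0.01 to 0.11) in low-score cells. Of its UMIs, 5 cells held 64.1% in dexamethasone and 5 held 44.9% in control members. The part of these cells in the ratio was not tested.

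The lowest ratios in S-phase cells were largely mitochondrially encoded. Of the 13 such genes 12 were lower in dexamethasone, with a median of -1.04, beside -1.06 in low-score cells, and Mt-nd4l was lowest at -1.43 (-1.57 to -1.30). Trim55 had a log2 ratio of -1.16 (-1.58 to -0.75) and Btf3, a transcription and nascent chain factor, -1.01 (-1.22 to -0.81). Ribosomal protein and other genes with near-identical copies stood among the extremes too. Rps19l2 was at 1.79, Ppial4d at 1.31, Rpl30 at 1.21 and Rpl37 at 1.15, while 2 gene identifiers both named Rps10 were at -1.18 and 0.74. These values are uncertain, and whether reads were split among copies in different ways was not tested.

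Of 20 measured glucocorticoid target genes, 6 were higher and 14 lower in dexamethasone than in control members, with a median log2 ratio of -0.13. Counting intervals were above 0 for 3 and below 0 for 5 of them. The summed level had a log2 ratio of -0.08 (-0.12 to -0.04). In low-score cells 8 were higher and 15 lower, with a median of -0.05. Fkbp5, a chaperone gene that glucocorticoids induce, was higher in S-phase than in low-score cells. It stood at 45.4 CPM in dexamethasone and 54.9 CPM in control members against 10.4 and 19.2 CPM in low-score cells, with log2 ratios of S-phase over low-score cells of 2.12 (1.80 to 2.45) and 1.51 (1.30 to 1.73). Between the libraries its log2 ratio was -0.27 (-0.53 to -0.02) in members and -0.88 (-1.18 to -0.59) in low-score cells. The receptor gene Nr3c1, named outside the rule, was at 43.2 and 46.9 CPM in members and 41.4 and 43.2 CPM in low-score cells.

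**Figure D5:**
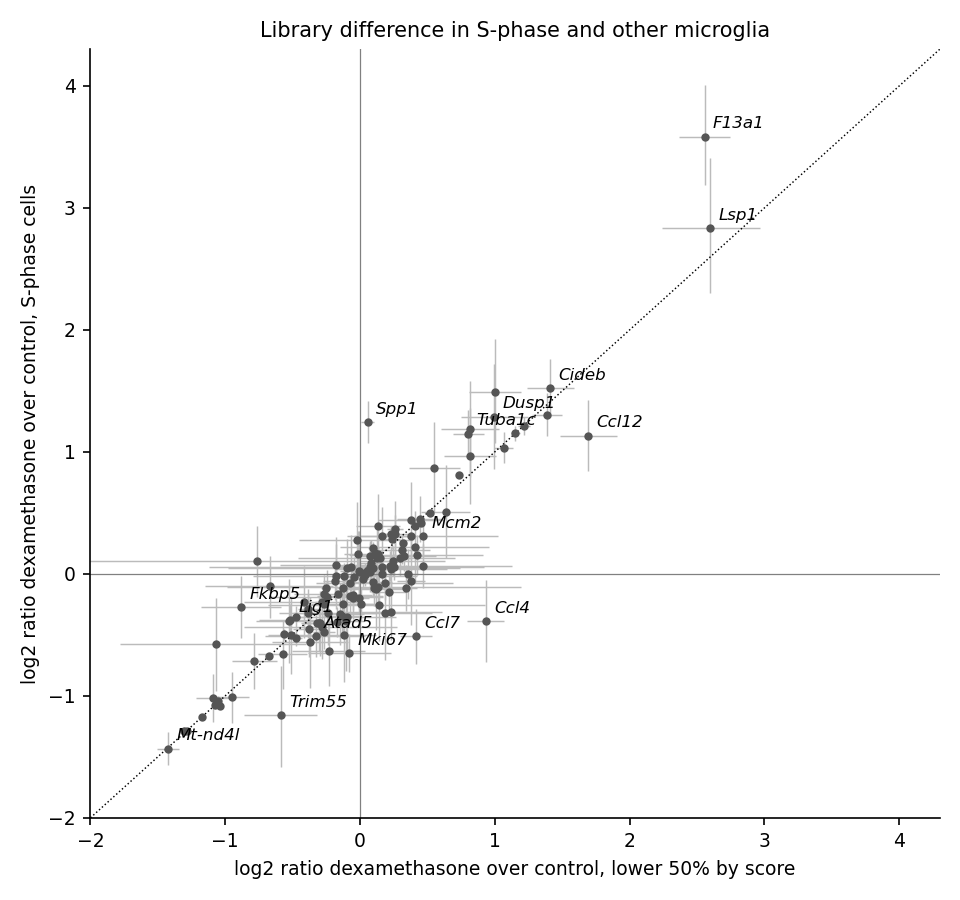
Log2 ratio of dexamethasone over control in low-score cells (x axis) and in S-phase cells (y axis) for 138 named genes with at least 20 CPM on average in S-phase cells, with 95% counting intervals as grey bars. Globin genes and symbols carried by more than 1 identifier are left out. Most genes lie near the dotted line of equal ratios, with F13a1 at 3.58 and 2.56, and Spp1 above the line at 1.24 and 0.06.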

How the data were processed

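Droplet single-cell RNA libraries of polyadenylated RNA were read from the deposited tables of whole-number UMI counts per gene and cell, which the authors made with Cell Ranger 7.0.0 on Rnor_6.0, per the submitters' processing notes. From these counts, UMIs were summed over the cells of a set and divided by all UMIs of that set to give CPM. Ratios were taken as log2 of CPM, with exact binomial intervals, and single levels and shares with exact Poisson and Clopper-Pearson intervals, at 95%. The interval of a difference in shares sets the bounds of both shares against each other. A gene counted as measured where both sides together held 20 UMIs or more, and counted past 1.5-fold with at least 20 CPM on average. For thinning, 4100 UMIs were drawn per cell. Named were the 8 score genes, the 12 highest and 12 lowest genes of S-phase over low-score cells (by the smaller ratio of both libraries, same direction) and of dexamethasone over control with intervals off 0, the 2 members of each list with the highest CPM and the 2 with the largest ratio, and Pcna, Mki67, Top2a, F13a1, Tmem119, P2ry12 and Fkbp5. The members and gene lists were chosen with earlier results of these data known. Doublets were not called. Other gates, scores, scalings and thresholds were tried. Python 3.11.15, numpy 2.4.6, scipy 1.17.1 and pandas 2.3.3 were used, and the calculation was tested on simulated data. Promoters came from RefSeq on GRCr8, another build than that of the counts.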

Additional observations from a re-analysis of the deposited data

Results flagged for a closer look

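Some genes had opposite signs in groups set side by side, with counting intervals off 0 on both sides. No such difference was tested. Between the libraries, dexamethasone over control, the globin genes differed most: Hba-a1 had a log2 ratio of -0.97 in S-phase and 2.59 in low-score cells, Hba-a2 -0.96 and 2.82, and Hbb-bs -0.83 and 3.01. In the dexamethasone library 6 low-score cells held 94.9% of the erythroid list UMIs. The chemokine genes Ccl4 and Ccl7 had log2 ratios of -0.39 and -0.51 in S-phase cells and 0.93 and 0.42 in low-score cells, and 5 control S-phase cells held 74.4% and 70.2% of their UMIs. Nop58 had -0.15 and 0.21. For S-phase over low-score cells, F13a1 had a log2 ratio of 0.43 in the dexamethasone and -0.60 in the control library, Ccl7 -0.70 and 0.23, and Tmsb4x, an actin-binding peptide, -0.054 and 0.011.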

How the results depend on the processing

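No paired analysis was possible because each group has 1 library, and no library could be left out. The difference in S-phase share was above 0 under every alternative run that could move it, with intervals that included 0 after thinning and with Mcm3, Mcm5, Mcm7 and Uhrf1 as the score. Taking the cutoff in each library sets the shares equal by construction. Counts of genes depended on the thresholds. With at least 50 CPM, no CPM minimum and 2-fold in turn, genes higher in S-phase cells numbered 192, 1464 and 165 in the dexamethasone and 193, 1615 and 168 in the control library, and genes lower 72, 707 and 37, and 74, 809 and 33. For dexamethasone over control they were 41, 484 and 25 higher and 32, 579 and 17 lower. Some single log2 ratios changed sign. For dexamethasone over control in S-phase cells, Gpnmb was -0.0050 with the cutoff in each library and -0.11 with a mean log score, Ccl4 0.57 at a C1q gate of 1.2% and 0.068 without mitotic UMIs, and Ccl7 0.34 and 0.54 under these and 0.034 in the top 20%. For S-phase over low-score cells in the control library, Ccl7 was -0.052 and -0.26 under the same gates, Ccl4 0.31 in the top 10%, and Tmsb4x -0.0062 in the top 10%, -0.018 at the 1.2% gate and -0.020 without the deepest 5% of cells. The mitochondrial median was 0.00022 at the 1.2% gate. In the dexamethasone library, Crip1 was 0.0011 as a mean of per-cell CPM and 0.26 without the deepest cells. Without cells rich in globin or S100a8 and S100a9, an alternative chosen after seeing the data, Hba-a1 was 0.072 and 0.015 in the dexamethasone and control libraries, Hba-a2 0.16 and Hbb-bs 0.064 in the dexamethasone library. The cells left out for these globin values were chosen by erythroid genes, globins included, so that alternative tests no cause. No cause of any of these sign changes was tested.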
